A study of Mus musculus with 12 samples.

Results

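Medium spiny neuron identity genes were followed through the RNA-seq libraries of a pair of striatal cell lines. The 9 genes were chosen by name: Bcl11b, Foxp1, Foxp2, Rarb, Ppp1r1b, Penk, Pdyn, Drd1 and Adora2a. Of these, 8 have a row among the 29428 genes of the table and 3 (Foxp1, Ppp1r1b and Penk) reached at least 0.5 TPM (a transcript level scaled for transcript length and library size) in at least 3 libraries, the condition for a test. Drd1 (ENSMUSG00000021478, chr13:54051183-54055705 in GRCm38, minus strand) has no row under its symbol or its identifier, so no value is given for it.

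STHdhQ7 (STHdhQ7/Q7) and STHdhQ111 (STHdhQ111/Q111) cells are immortalized mouse lines of striatal origin in which both copies of the huntingtin gene encode 7 or 111 glutamines. Each line was kept at 33 °C and was left untreated (Q7-C and Q111-C) or exposed for 24 h to a mixture of 5 μg/mL LPS and 100 ng/mL murine IFNγ (Q7-T and Q111-T), with 3 libraries in each of the 4 groups. Each genotype is represented by a single line, so that the huntingtin repeat and any other difference between the lines cannot be told apart. The study calls the 3 libraries of a group biological replicates without saying whether they came from separate cultures, and the p-values measure the spread between these libraries.

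Medium spiny neurons are the GABAergic projection neurons that make up most of the striatum, and they are the cells that degenerate early in Huntington's disease. Their development and identity depend on the transcription factors Bcl11b (also called Ctip2), Foxp1, Foxp2 and Rarb, the last a retinoic acid receptor. The mature cells contain Ppp1r1b (DARPP-32), a protein that relays dopamine signals by inhibiting protein phosphatase 1. Direct-pathway cells carry the dopamine receptor Drd1 and the dynorphin precursor Pdyn, and indirect-pathway cells carry the adenosine receptor Adora2a and the enkephalin precursor Penk.

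The 8 genes with a row lay at very different levels in these lines. Foxp1 was expressed in all 12 libraries, from 6.15 to 12.8 TPM, and its mean TPM lay at the 52.7th percentile of the 16127 genes tested. Penk and Ppp1r1b were low and were mainly seen in STHdhQ111 cells, with at most 5.42 and 1.3 TPM. Adora2a did not exceed 0.411 TPM. Bcl11b, Foxp2, Rarb and Pdyn were not detected, meaning at most 12 estimated counts in every library, which is about 3 read pairs. Total estimated counts ranged from 57505990 to 96417834 per library, so that this floor stands for 0.124 to 0.209 CPM (counts scaled to the library's total). In bulk RNA, fewer cells that express a gene and less RNA per cell cannot be told apart.

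**Figure D1:**
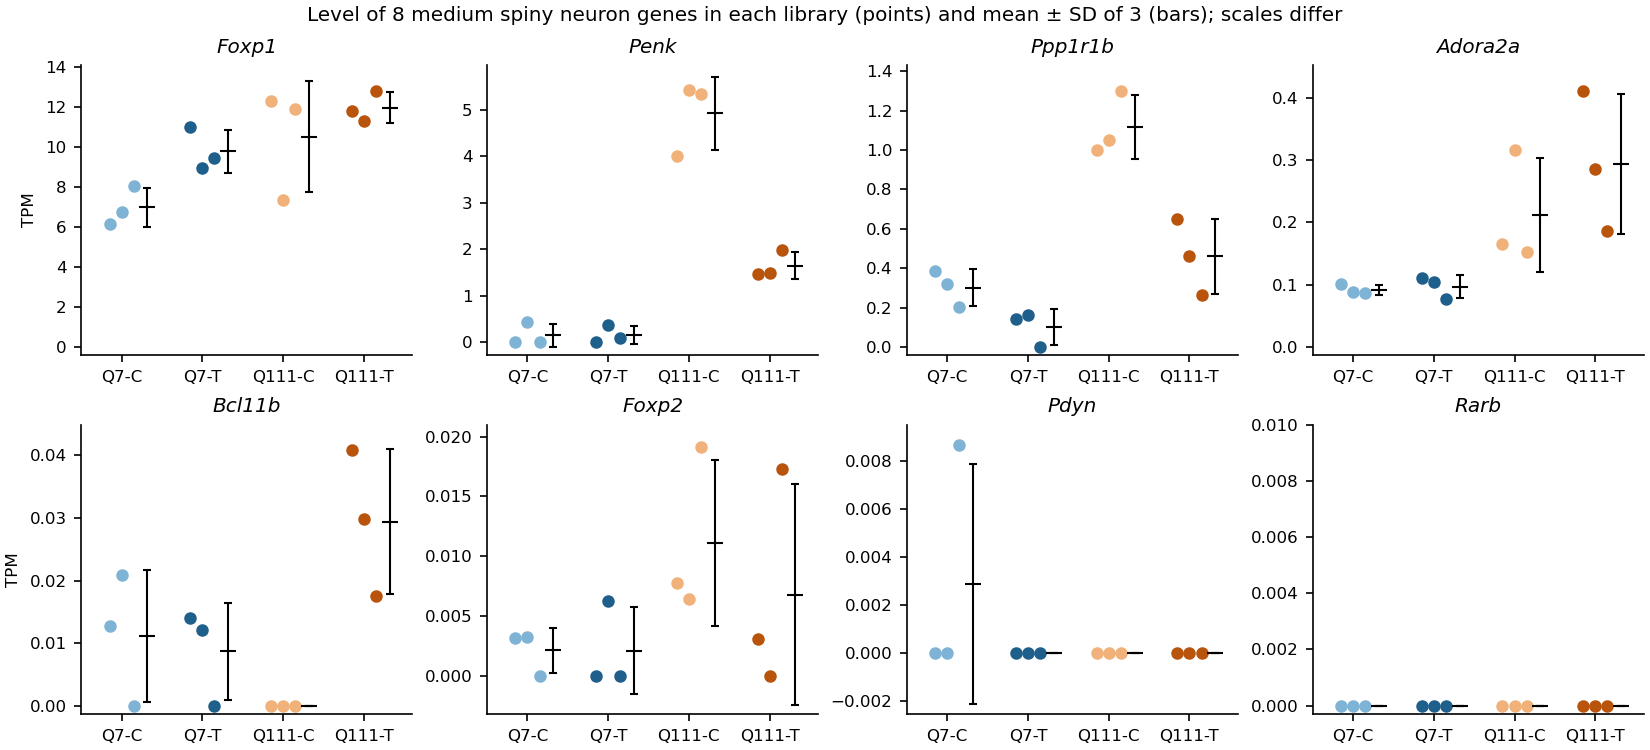
TPM of the 8 medium spiny neuron genes that have a row, in each library (points, 3 per group) with the mean and SD of each group (black bars), each gene on its own linear scale. Foxp1 lies between 6.15 and 12.8 TPM in all 12 libraries, Penk and Ppp1r1b are highest in Q111-C, and Bcl11b, Foxp2, Pdyn and Rarb stay at or under 0.0407 TPM.

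Penk encodes a precursor that is cut into several enkephalin peptides, and among the tested members it has the largest difference between the lines. It lies on the minus strand of chromosome 4 of GRCm38 (ENSMUSG00000045573, chr4:4133531-4138819) and overlaps A830012C17Rik on the opposite strand, which reached at most 0.317 TPM. The coding sequence of transcript Penk-201 in GENCODE M21 has 804 bases and holds 7 in-frame copies of the enkephalin codons (tyrosine, glycine, glycine, phenylalanine and then methionine or leucine), 6 of them ending in the methionine codon. The stretch from coding base 559 to 798 (chr4:4133848-4134087, minus strand) holds 4 copies. It lies within a single exon, labelled exon 2 without counting any exon that has no coding bases. It is shown because these repeats are what the transcript contributes as peptide, with the enkephalin codons in capitals.
Penk exon 2: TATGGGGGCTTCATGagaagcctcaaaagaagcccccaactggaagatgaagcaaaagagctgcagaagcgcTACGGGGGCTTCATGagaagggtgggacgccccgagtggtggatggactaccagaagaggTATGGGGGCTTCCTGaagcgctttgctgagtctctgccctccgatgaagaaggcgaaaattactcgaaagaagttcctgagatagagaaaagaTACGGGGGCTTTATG

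The libraries themselves were checked first. Irf1, an interferon-induced gene, averaged 15.4 TPM in Q7-C against 250.0 in Q7-T, and 43.3 in Q111-C against 496.0 in Q111-T, as the treatment labels say. In 4 libraries (Q7-T replicates 1 and 2, Q111-C replicate 1 and Q111-T replicate 3) the summed level of 10 skeletal muscle genes was 472.0 to 3080.0 TPM, against 1.96 to 35.6 TPM in the other 8. This set of 10 genes was chosen after the values were seen. Its part in the results was not tested, and values without these 4 libraries are given beside the results for the members and for several of the other genes. Of 11 neuron markers, 3 (Rbfox3, Nefl and Slc32a1) have no row and 4 (Snap25, Syt1, Dcx and Gad2) were not detected in any library. Tubb3, a neuronal tubulin, had 16.2 to 17.8 TPM in Q7-C and 2.56 to 4.88 TPM in Q111-C, and it was higher on treatment in STHdhQ7 (2.29, standard error 0.247, adjusted p = 1.16e-04, edgeR) and STHdhQ111 cells (2.77, standard error 0.254, adjusted p = 1.53e-05, edgeR). Map2, a microtubule-associated protein of neurons, went the other way in STHdhQ7 cells, with 4.41 to 10.6 TPM in Q7-C and 0.604 to 3.11 TPM in Q7-T (-1.8, standard error 0.345, adjusted p = 0.00868, edgeR, not called without the 4 libraries), and had 4.44 to 6.56 TPM in the STHdhQ111 libraries. Stmn2, a growth-associated neuronal protein, had 69.6 to 82.0 TPM in STHdhQ7 libraries and 1.14 to 2.77 TPM in STHdhQ111 libraries. The summed level of the 7 mesenchymal markers was 541.0 to 2580.0 TPM over all libraries, led by the smooth muscle actin gene Acta2 in STHdhQ7 cells and by the collagen gene Col1a1 and the fibronectin gene Fn1 in STHdhQ111 cells, and that of the 8 neuron markers was 9.85 to 168.0 TPM.

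In untreated cells, Penk was higher in STHdhQ111 than in STHdhQ7. Its level was 0, 0.429 and 0 TPM in the 3 Q7-C libraries and 4.01, 5.42 and 5.34 TPM in the 3 Q111-C libraries, which rest on 0, 26 and 0 and on 205, 310 and 334 estimated counts. The lowest Q111-C library was well above the highest Q7-C library, and the only Q7-C library with any Penk count was replicate 2. In Q111-C vs. Q7-C the log2 fold change of Penk was 4.88, with a standard error of 1.43 and an adjusted p of 0.0295 (edgeR, quasi-likelihood F test, Benjamini-Hochberg over all 16127 genes tested). The two-sided exact permutation test of the TPM gave p = 0.1, the smallest that 3 libraries against 3 allow. As Penk passed the condition for a test only through its STHdhQ111 libraries, its being tested and its difference are not independent. The call was kept without the 4 libraries with muscle transcripts (log2 fold change 5.01, adjusted p = 0.0281, edgeR). It was lost when Q7-C replicate 1 or 3, or any Q111-C library, was left out, with adjusted p (edgeR) from 0.0531 to 0.072 and log2 fold changes from 4.3 to 5.02. Its fitted size rests on the counts of 1 Q7-C library and differed between fits. Without Q7-C replicate 2 the remaining Q7-C libraries have no Penk count, and the log2 fold change of 11 then depends on the prior count of the fit and is no measure of size, while limma on log2(TPM + 1) gave 2.39.

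After IFNγ/LPS, Penk was again seen mainly in STHdhQ111 cells, at a lower level. It had 0, 0.368 and 0.096 TPM in Q7-T and 1.47, 1.49 and 1.98 TPM in Q111-T. The 3 Q111-T libraries lay above all Q7-T libraries and below all Q111-C libraries. In Q111-T vs. Q7-T the log2 fold change of Penk was 2.68 (standard error 1.32, adjusted p = 0.132, edgeR), which is not a call. Penk was called in that comparison by limma on log2(TPM + 0.5) (1.74, adjusted p = 6.76e-04), with the counts divided by 4 (2.8, adjusted p = 0.0302, edgeR) and without Q7-T replicate 2 (4.68, adjusted p = 0.0281, edgeR).

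Within STHdhQ111 cells, the treated libraries had less Penk than the untreated ones. The mean was 4.93 ± 0.793 TPM (SD, n = 3) in Q111-C and 1.65 ± 0.29 TPM (SD, n = 3) in Q111-T, a ratio of 0.334 ± 0.0798 (SD propagated). The call differed between fits. With all 12 libraries in one edgeR fit, the log2 fold change in Q111-T vs. Q111-C was -1.48 (standard error 1.21, adjusted p = 0.485, edgeR). With the 6 STHdhQ111 libraries alone it was -1.48 (standard error 0.231, adjusted p = 0.00184, edgeR), which is a call, and limma on log2(TPM + 0.5) of all 12 libraries gave -1.34 (adjusted p = 0.00707). In STHdhQ7 cells Penk was at or near 0 with and without treatment, and no difference was detectable at this depth (Q7-T vs. Q7-C, log2 fold change 0.72, standard error 1.37, adjusted p = 0.874, edgeR). The difference of the treatment responses of the lines was -2.2 on the log2 scale (standard error 1.83, adjusted p = 0.559, edgeR) and did not pass the test.

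Ppp1r1b (ENSMUSG00000061718, chr11:98348404-98357796, plus strand) was, like Penk, highest in Q111-C and next highest in Q111-T. It had 0.385, 0.319 and 0.204 TPM in Q7-C and 1.0, 1.05 and 1.3 TPM in Q111-C. The treated libraries had 0.145, 0.164 and 0 TPM in Q7-T and 0.651, 0.464 and 0.267 TPM in Q111-T. In TPM the groups did not overlap in any of the 4 pairwise comparisons. On counts scaled by TMM, Q7-T (up to 0.433 CPM) overlapped with Q7-C (from 0.305 CPM) and with Q111-T (from 0.352 CPM). The share of all genes without overlap was not counted. The estimated counts behind these values were 93 to 147 in Q111-C, 22 to 69 in Q111-T, 27 to 44 in Q7-C and 0 to 19 in Q7-T. Ppp1r1b, too, was tested only because its STHdhQ111 libraries passed the condition. None of its differences was a call. Its log2 fold change was 1.5 in Q111-C vs. Q7-C (standard error 0.894, adjusted p = 0.281, edgeR) and 1.64 in Q111-T vs. Q7-T (standard error 0.938, adjusted p = 0.188, edgeR). On treatment it was -1.3 in STHdhQ7 cells (standard error 0.936, adjusted p = 0.6, edgeR) and -1.16 in STHdhQ111 cells (standard error 0.884, adjusted p = 0.449, edgeR). With the 6 libraries compared alone, Ppp1r1b was called in Q111-C vs. Q7-C (1.52, adjusted p = 0.0318, edgeR) and in Q111-T vs. Q111-C (-1.16, adjusted p = 0.048, edgeR). Limma on log2(TPM + 0.5) called it in Q111-C vs. Q7-C (1.01, adjusted p = 0.00303). Without the 4 libraries with muscle transcripts, the only Q7-T library left has no Ppp1r1b count, and its values there (8.97 and -8.31 against Q111-T and Q7-C, both called) depend on the prior count of the fit and are no measure of size.

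**Figure D2:**
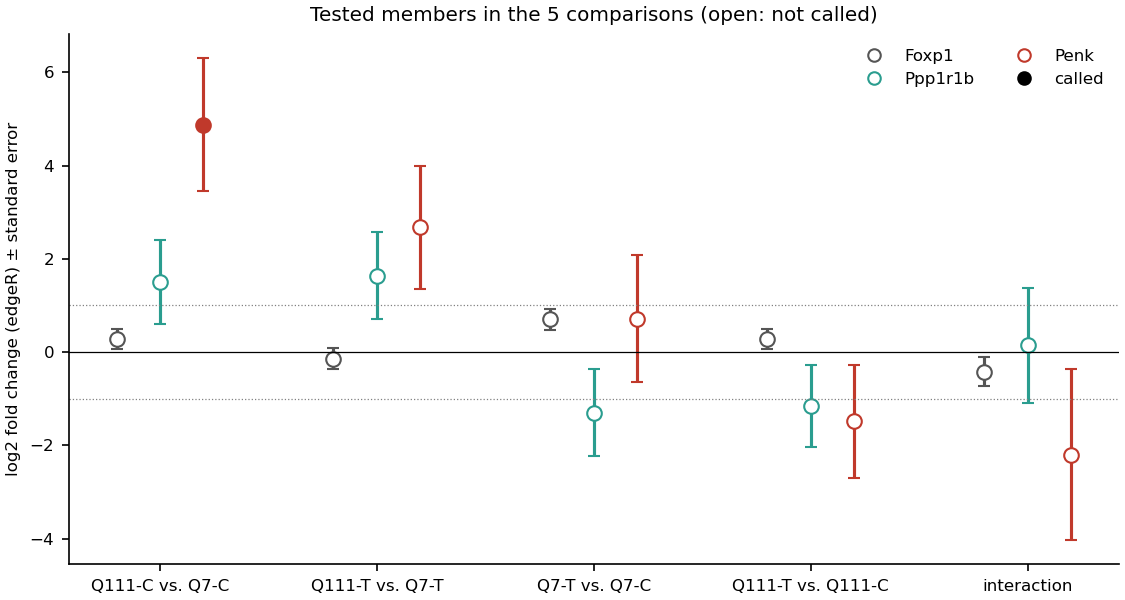
Log2 fold change from edgeR with its standard error (bars) for Foxp1, Ppp1r1b and Penk in the 4 pairwise comparisons and the interaction, the difference of the treatment responses of the lines; filled points are calls and dotted lines mark 2-fold. Penk in Q111-C vs. Q7-C (4.88) is the only filled point, and the bars of Foxp1 (0.219 to 0.31) are the shortest.

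Foxp1 is a forkhead transcription factor and the member with the most reads, 3264 to 6591 estimated counts per library. It lies on chromosome 6 (ENSMUSG00000030067, chr6:98925338-99521162, minus strand) with 27 transcripts in the table, and 3 genes on the same strand overlap it at no more than 0.165 TPM. It had 6.15, 6.75 and 8.04 TPM in Q7-C, and 11, 8.94 and 9.45 TPM in Q7-T. In STHdhQ111 cells it had 12.3, 7.34 and 11.9 TPM in Q111-C, and 11.8, 11.3 and 12.8 TPM in Q111-T. Ordered by their means, the groups ran from Q7-C (6.98 ± 0.963 TPM) over Q7-T (9.78 ± 1.05) and Q111-C (10.5 ± 2.75) to Q111-T (12 ± 0.738; SD, n = 3 each). Q111-C overlapped each of the other groups in range, and its replicate 2 lay among the Q7-C libraries. On this scale Q7-C and Q7-T did not overlap with each other, nor did Q7-T and Q111-T. On counts scaled by TMM, the scale of the edgeR test, the means ran from Q7-C (53.0 CPM) over Q111-C (64.2 CPM) and Q111-T (78.2 CPM) to Q7-T (86.2 CPM), with Q7-T from 71.7 to 108.0 CPM and Q111-T from 72.7 to 83.6 CPM overlapping.

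Foxp1 was not called in any comparison. The treatment response of STHdhQ7 cells had the smallest p, its log2 fold change being 0.7 (standard error 0.22, unadjusted p = 0.00845, adjusted p = 0.113, edgeR), and all 3 Q7-T libraries lay above all Q7-C libraries. DESeq2 gave it 0.71 with an adjusted p of 0.0399, which is under 2-fold. In STHdhQ111 cells the response was 0.28 (standard error 0.219, adjusted p = 0.456, edgeR), and the difference of the responses was -0.42 (standard error 0.31, adjusted p = 0.504, edgeR). Between the lines Foxp1 differed by 0.28 in untreated cells (standard error 0.219, adjusted p = 0.434, edgeR). In treated cells the sign differed between fits. It was -0.14 on counts scaled by TMM (standard error 0.219, adjusted p = 0.635, edgeR) and 0.28 on log2(TPM + 0.5) (adjusted p = 0.319, limma), and it was 0.06 without Q7-T replicate 2, the library with the most muscle transcripts, and 0.11 without the 4 libraries with muscle transcripts (edgeR). TPM moved the median of all tested genes to 0.34 in this comparison and to 0.27 in Q111-C vs. Q7-C, against -0.03 and -0.02 with TMM, so the differences on the TPM scale have to be read against those medians.

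Counted over the members, 1 of the 3 tested was called in Q111-C vs. Q7-C, upward, where 7.62% of all tested genes were called higher and 7.61% lower. In Q111-T vs. Q7-T none of the 3 was called by edgeR or DESeq2, 0 had an unadjusted p under 0.05 in edgeR, and limma called 1; the background was 13.3% higher and 11.2% lower. In Q7-T vs. Q7-C none was called by edgeR, DESeq2 or limma, and 1 (Foxp1) had an unadjusted p under 0.05 in edgeR, against a background of 2.93% higher and 1.11% lower. In Q111-T vs. Q111-C none was called by edgeR or DESeq2, 0 had an unadjusted p under 0.05 in edgeR and limma called 1, against 8.28% higher and 2.96% lower. For the interaction none was called by any of the 3 tools, 0 had an unadjusted p under 0.05 in edgeR, and the background was 4.71% in either direction. A count of 1 in 3 is too small to be set apart from these background shares.

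Adora2a, the adenosine receptor of indirect-pathway cells (ENSMUSG00000020178, chr10:75316877-75334784, plus strand), had counts in all 12 libraries but did not reach 0.5 TPM in any. It had 0.101, 0.088 and 0.0862 TPM in Q7-C and 0.166, 0.317 and 0.153 TPM in Q111-C. After treatment it had 0.111, 0.104 and 0.0769 TPM in Q7-T and 0.411, 0.285 and 0.187 TPM in Q111-T. In TPM the STHdhQ111 libraries lay above the STHdhQ7 libraries in both conditions without overlap. Two-sided exact permutation tests of TPM gave p = 0.1 each, the smallest possible. On counts scaled by TMM the lines overlapped in both conditions. Q7-C reached 0.214 CPM against 0.208 CPM in the lowest Q111-C library, and Q7-T reached 0.296 CPM against 0.256 CPM in the lowest Q111-T library. The share of all genes without overlap was not counted. The highest estimated count was 46 in STHdhQ111 cells and 13 in STHdhQ7 cells, 1 above the floor of 12. Fitted without the condition on low values, its log2 fold change was 0.83 in Q111-C vs. Q7-C (standard error 0.651, adjusted p = 0.493, edgeR) and 1.1 in Q111-T vs. Q7-T (standard error 0.652, adjusted p = 0.29, edgeR). The treated and untreated groups of each line overlapped.

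The remaining 4 listed members were not detected in any group. Bcl11b (ENSMUSG00000048251, chr12:107910403-108003602, minus strand), a zinc-finger factor that marks medium spiny neurons, had 0 counts in all 3 Q111-C libraries and at most 7 in STHdhQ7 cells. Its highest values, 12, 8 and 4 estimated counts (0.0407, 0.0297 and 0.0176 TPM), were in Q111-T, which is at or under the floor. Foxp2 (ENSMUSG00000029563, chr6:14901349-15441977, plus strand), a forkhead factor also linked to speech, had 38 estimated counts over the 12 libraries and at most 12 in 1 library. Pdyn (ENSMUSG00000027400, chr2:129686565-129699833, minus strand) had 2 estimated counts in Q7-C replicate 3 and none elsewhere. Rarb (ENSMUSG00000017491, chr14:16430839-16575827, minus strand) had 1 estimated count in Q7-C replicate 3 and none elsewhere, although it overlaps Top2b, a gene on the opposite strand with 3.25 to 25.8 TPM. With the floor at 3 estimated counts in place of 12, Rarb and Pdyn stay undetected in all 4 groups, and Bcl11b and Foxp2 are undetected in 1 group each.

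Both transcription factor families had other members at much higher levels in the same libraries. Foxp4, the forkhead factor with the highest mean among 18 striatal regulators, had 19.5 to 53.6 TPM, against 6.15 to 12.8 TPM for Foxp1 and at most 0.0191 TPM for Foxp2.

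Rarb was the retinoic acid receptor gene under the floor of detection. Rarg had 78.3 to 128.0 TPM and Rara 9.1 to 19.8 TPM in the same 12 libraries. Rarb is a textbook target of retinoic acid through a response element in its own promoter, a direct repeat of hexamers spaced by 5 bases. The RefSeq promoter table (GRCm38.p6, 250 bases before to 50 after each start site) holds 1 Rarb promoter (chr14:16575427-16575726, minus strand), which is shown because of this element. A search for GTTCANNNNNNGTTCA on both strands, the 6 free letters being the spacer and the first base of the other hexamer, found it from -52 to -37 of the start site, in capitals. The same letters occur in 25 of 32851 promoters (0.0761%) and in none of the other 8 promoters of members in the table, those of Pdyn, Foxp1, Bcl11b and Drd1. A match of letters does not show that a receptor binds there.
Rarb promoter: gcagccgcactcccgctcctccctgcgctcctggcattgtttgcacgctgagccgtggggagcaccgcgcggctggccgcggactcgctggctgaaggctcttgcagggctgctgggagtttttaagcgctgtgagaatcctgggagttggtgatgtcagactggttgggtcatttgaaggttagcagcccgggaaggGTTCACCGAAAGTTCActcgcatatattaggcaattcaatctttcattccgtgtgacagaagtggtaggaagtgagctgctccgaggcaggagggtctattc

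**Figure D3:**
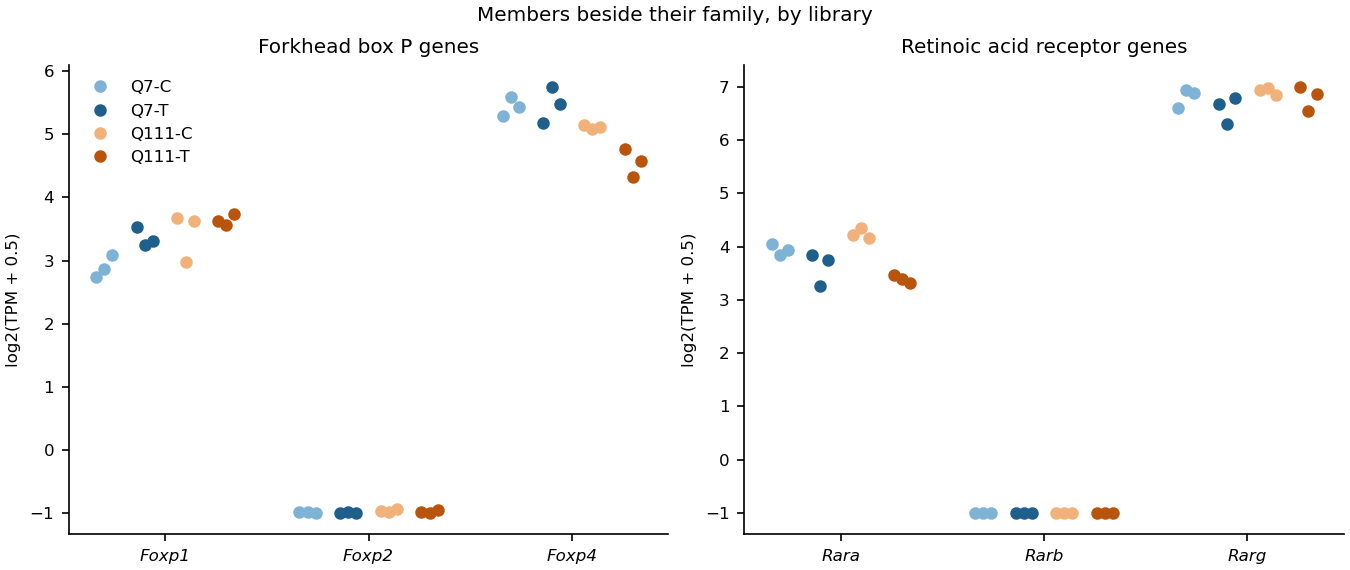
Level of the forkhead box P genes (left) and of the retinoic acid receptor genes (right) in each library, as log2(TPM + 0.5), coloured by group. Foxp2 and Rarb stay at or under 0.0191 TPM in every library, below Foxp1 (6.15 to 12.8 TPM), Foxp4 (19.5 to 53.6 TPM), Rara (9.1 to 19.8 TPM) and Rarg (78.3 to 128.0 TPM).

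Of the 16 genes of the retinoid pathway, receptors included, 14 were tested. In Q111-C vs. Q7-C 1 was called higher and 5 lower, where 7.62% of all tested genes were called higher and 7.61% lower, with a median log2 fold change of -0.3 against -0.02 over all genes. Crabp1, a retinoic acid binding protein of the cytoplasm, had 141.0 to 237.0 TPM in Q7-C and 1.06 to 3.17 TPM in Q111-C (log2 fold change -6.58, standard error 1.14, adjusted p = 0.0013, edgeR). Cyp26a1, an enzyme that degrades retinoic acid, had 0 counts in all 3 Q111-C libraries, and its mean in Q7-C was at least 9.18-fold higher, taking the floor of 12 estimated counts in each Q111-C library. Aldh1a3, an enzyme that makes retinoic acid, is among the 5 and was tested only because its 3 Q7-C libraries passed the condition, so that its being tested and its difference are not independent. Dhrs3, a retinal reductase, was the gene called higher in Q111-C (1.97, standard error 0.352, adjusted p = 0.00162, edgeR). In Q111-T vs. Q7-T, 2 were called higher and 2 lower, against 13.3% higher and 11.2% lower over all genes. Crabp1 was again lower (-7.58, standard error 1.22, adjusted p = 6.06e-04, edgeR), with 1884 to 3826 estimated counts in Q7-T and 0, 51 and 0 in Q111-T, and its fitted size, resting on 1 Q111-T library with counts, ran from -14.8 to -5.98 over 22 alternatives. The receptor Rxrb was the other gene called lower (-1.01, standard error 0.183, adjusted p = 0.00125, edgeR), at the limit of 2-fold, and this call was kept in 8 of 23 alternatives. On treatment, 2 genes were called lower in STHdhQ7 cells, led by Stra6, a receptor for vitamin A transport (-2.87, standard error 0.553, adjusted p = 0.0088, edgeR). The other was Aldh1a3, to which the same limit applies and whose call was kept in 6 of 22 alternatives. In STHdhQ111 cells 2 were called higher, led by Cyp26a1, which had 13 to 54 estimated counts in Q111-T against 0 in Q111-C, at least 3.55-fold. The other was Stra6 (1.66, standard error 0.521, adjusted p = 0.0462, edgeR, kept in 9 of 22 alternatives), opposite to its direction in STHdhQ7 cells. In the test of the difference of the responses Stra6 had 4.53 (standard error 0.758, adjusted p = 0.00536, edgeR), and 3 of the 14 genes were called there, against 4.71% of all genes, and 0 without the 4 libraries with muscle transcripts. Stra6 reached 0.5 TPM only in Q7-C and Q111-T, the higher group of each treatment comparison, and had 13 to 22 estimated counts in Q7-T. Its being tested and its differences on treatment and between the responses are therefore not independent. The background on treatment was 1.11% lower in STHdhQ7 cells and 8.28% higher in STHdhQ111 cells. With single libraries left out, these numbers of calls ranged from 5 to 7 in Q111-C vs. Q7-C, from 3 to 5 in Q111-T vs. Q7-T and from 1 to 2 in each treatment comparison. For the difference of the responses they ranged from 1 to 3. Without the 4 libraries with muscle transcripts, 3 were called between the treated lines, 1 on treatment in STHdhQ111 cells and 0 on treatment in STHdhQ7 cells, where Stra6 had -3.39 (adjusted p = 0.115, edgeR).

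Of the 18 other striatal regulators, 16 have a row, 9 were tested, and Bcl11a, Six3 and Ikzf1 were not detected. In Q111-C vs. Q7-C 1 was called higher and 2 lower (7.62% and 7.61% over all genes), with a median log2 fold change of -0.12, and in Q111-T vs. Q7-T 1 was called higher and 3 lower (13.3% and 11.2% over all genes), with a median of 0.02. Sp8, a zinc-finger factor of the developing ganglionic eminences, was called lower in each of the 4 pairwise comparisons, at -2.55 in Q111-C vs. Q7-C (standard error 0.362, adjusted p = 3.35e-04, edgeR) and at -3.97 in Q111-T vs. Q7-T (standard error 0.397, adjusted p = 2.1e-05, edgeR). Zfp503 (also called Nolz1), a factor of the striatal primordium, was the gene called higher in STHdhQ111 cells (1.88, standard error 0.395, adjusted p = 0.00469, edgeR). On treatment, Sp8 was the only regulator called in STHdhQ7 cells, with a median over the 9 genes of -0.74, and Sp8, Zfp503 and Dlx5 were called lower in STHdhQ111 cells, with a median of -0.47, against 1.11% and 2.96% of all genes called lower. Dlx5 was tested only because its Q111-C libraries passed the condition (72 to 127 estimated counts, against 4 to 17 in Q111-T), so that its being tested and its difference are not independent. The medians over all genes on treatment were 0.00328 and -0.00497. The treatment call of Sp8 in STHdhQ7 cells was lost without Q7-C replicate 1 or 2 or Q7-T replicate 3 (adjusted p up to 0.0679, edgeR). That of Dlx5 in STHdhQ111 cells was lost without Q7-C replicate 3 or any STHdhQ111 library (up to 0.127, edgeR) and without the 4 libraries with muscle transcripts, and that of Zfp503 without any Q111-C library or Q111-T replicate 1 or 3 (up to 0.114, edgeR).

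Signalling genes of medium spiny neurons were mostly under the level for a test. Of 22 genes, 18 have a row and 5 were tested, and Drd2, Tac1, Gpr6 and Hpca have none. Strn (striatin) had the highest mean, 9.76 TPM over the 12 libraries. Pde1b, a calcium-dependent phosphodiesterase, was the only call, lower in Q111-C than in Q7-C (-1.48, standard error 0.166, adjusted p = 5.76e-05, edgeR). In that comparison 7.61% of all tested genes were called lower. Actn2, another of the 5, reached 0.5 TPM only in the 4 libraries with muscle transcripts, with 2.56 to 11.6 TPM. Scn4b reached it only in Q7-T replicates 1 and 2 and Q111-T replicates 1 and 3. Of the 10 genes of the opioid system, 5 have a row, and Pomc, Pnoc, Oprm1, Pcsk1 and Pcsk2, the last 2 being the convertases that cut neuropeptide precursors, have none. Cpe, the carboxypeptidase that trims such peptides, had a mean of 237.0 TPM and was the only gene tested, with no call. Oprd1, the delta receptor at which enkephalins act, had 0.398 to 0.489 TPM in Q111-C and at most 0.0229 TPM in Q7-C, from at most 64 estimated counts.

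The dopamine receptors Drd2, Drd3 and Drd5 and the adenosine receptor Adora3 have no row, and Drd4 was listed at a mean of no more than 0.0663 TPM in any group. Adora2b, the low-affinity adenosine receptor, was the only tested gene of these 7 and was called higher on treatment in both lines. It had 1.44 to 2.7 TPM in Q7-C and 3.44 to 9.33 TPM in Q7-T (1.77, standard error 0.327, adjusted p = 0.00677, edgeR), and 2.14 to 3.23 TPM in Q111-C and 5.64 to 6.8 TPM in Q111-T (1.35, standard error 0.324, adjusted p = 0.0126, edgeR). The call in STHdhQ111 cells was lost without Q111-C replicate 1 or 2 or Q111-T replicate 2, and without the 4 libraries with muscle transcripts (1.38, adjusted p = 0.0772, edgeR) both were lost (1.84 in STHdhQ7 cells, adjusted p = 0.0993, edgeR). Of the 10 partners of Ppp1r1b, all have a row and 9 were tested, and Ppp1ca, the catalytic subunit of protein phosphatase 1 that DARPP-32 inhibits, had a mean of 575.0 TPM. Calls were made only in Q111-T vs. Q7-T, where Ppp1ca (-1.24, standard error 0.326, adjusted p = 0.0111, edgeR) and Ppp1r1a (adjusted p = 0.0307, edgeR) were lower, against 11.2% of all genes. Ppp1r1a had 26 to 60 estimated counts in Q7-T and 0, 0 and 6 in Q111-T, under the floor, so no size is given, and it passed the condition for a test only through STHdhQ7 libraries. Ppp1ca had -0.67 without Q7-T replicate 2, the library with the most muscle transcripts, and was not called without it or without the 4 libraries. The call of Ppp1r1a was lost without Q7-T replicate 2 or Q111-T replicate 1 or 2 (adjusted p up to 0.0996, edgeR).

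For each tested member, the genes with the most similar pattern were those whose log2(TPM + 0.5), centred over the 12 libraries, differed least from it (root mean square difference). For Penk they were Cpm (0.256) and Il34 (0.269), against 1.34 for the spread of Penk itself. Il34 averaged 1.32 TPM in untreated and 1.5 TPM in treated STHdhQ7 cells, and 13.0 TPM in untreated and 6.35 TPM in treated STHdhQ111 cells. For Ppp1r1b they were Rogdi (0.149) and Mrnip (0.172), against its own spread of 0.55. Rogdi averaged 14.8, 11.3, 30.6 and 16.7 TPM in the groups in the same order. For Foxp1 they were Calhm5 (0.177) and Npm1 (0.178), against a spread of 0.331, so that these are less alike relative to the range of the gene. These are descriptions over 12 libraries that share the group structure.

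**Figure D4:**
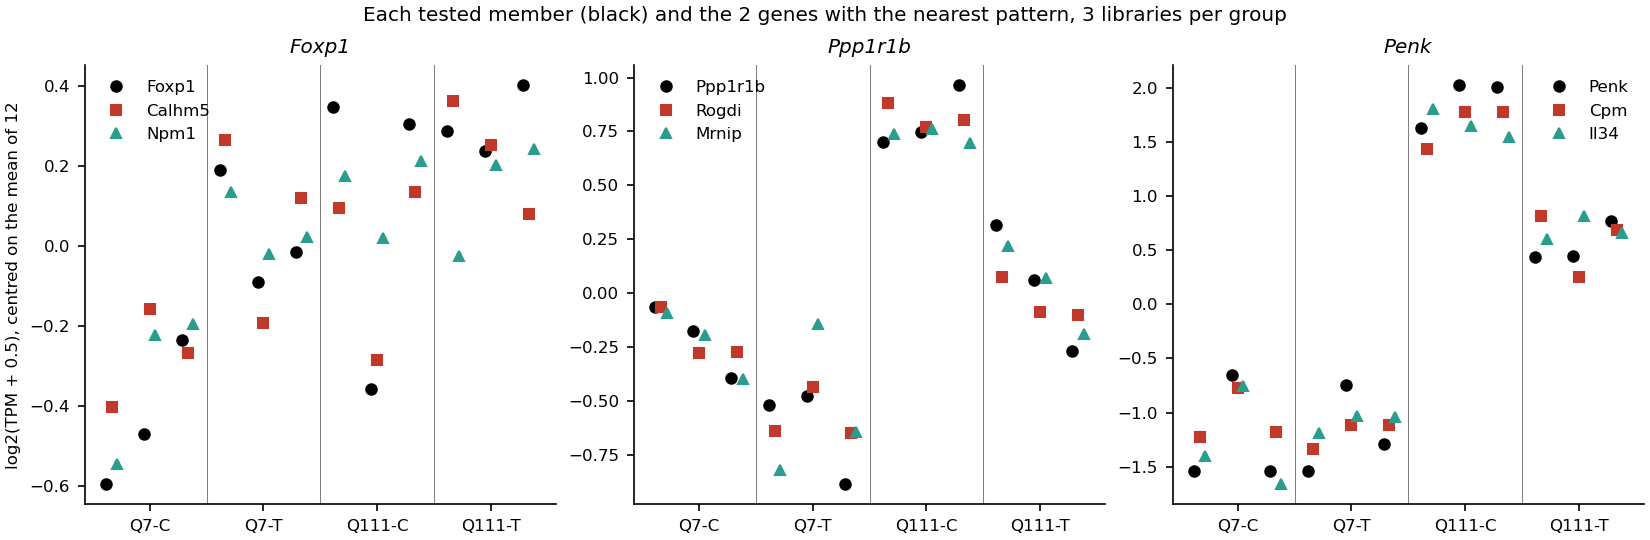
Centred log2(TPM + 0.5) of Foxp1, Ppp1r1b and Penk (black circles) and of the 2 tested genes nearest to each (red squares, green triangles) in the 12 libraries, 3 per group. For Penk, the nearest genes Cpm and Il34 (root mean square differences 0.256 and 0.269) share the order with Q111-C highest, Q111-T next and both STHdhQ7 groups lowest.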

How the data were processed

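Poly(A) RNA of STHdhQ7 and STHdhQ111 cells, untreated or treated with IFNγ/LPS, was sequenced by the authors in stranded paired-end libraries, 3 per group. Per the labels and the study's methods, reads were trimmed with cutadapt, mapped to GRCm38 with HISAT2 and quantified with StringTie. The authors deposited one table with a TPM value and an estimated count for each of 29428 genes and 12 libraries. The TPM values of the listed genes sum to 688352 to 719623 per library. Low estimated counts at multiples of 4 were 1.3 to 1.66 times as frequent as at the other even numbers, so 1 read pair was taken as about 4 counts, and 3 pairs (12 counts) as the floor of detection, which covers counting error only.

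Estimated counts were rounded, scaled by TMM and tested with edgeR 4.0.16 (quasi-likelihood, R 4.3.3) in one fit of all 12 libraries, for the 16127 genes that reached 0.5 TPM in 3 or more libraries. Calls needed a change of 2-fold or more and an adjusted p (Benjamini-Hochberg) below 0.05. Standard errors were derived from the F statistic. Single members were also compared by two-sided exact permutation tests of TPM. The procedure was tested on simulated counts. Replicates differed beyond sampling noise (chi-square per degree of freedom of at least 4.88), so none was treated as a repeat. Alternatives were DESeq2 1.42.0, limma 3.58.1 on log2(TPM + a pseudocount of 0.5, 0.1 or 1), other scaling and filters, counts divided by 4, only the groups compared, a replicate block, and each library left out. Sequences came from RefSeq and GENCODE M21 tables; promoters were found for 5 of the 9 members.

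The members and the 13 other gene lists were chosen with earlier results of these data known. The lists hold striatal regulators, striatal signalling genes, the retinoid pathway, the opioid system, dopamine and adenosine receptors, partners of DARPP-32, and markers of neurons, striatal interneurons, neural progenitors, astrocytes, oligodendrocytes, microglia and mesenchymal cells. Named were all members, and from each list the gene with the highest mean TPM and, in each pairwise comparison, the called gene with the largest change, as far as the text uses the list (1 gene is not reported here), and the 2 genes nearest in pattern to each tested member; other genes named were chosen after their values were seen.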

Additional observations from a re-analysis of the deposited data

Results flagged for a closer look

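The treatment responses of the lines differed by the interaction test for 0 of the 3 tested members and for 6 genes of the other lists. Over all tested genes the share called was 4.71%. Among tested genes, the 6 were 3 of 14 of the retinoid pathway, 1 of 3 neuron markers, 1 of 3 astrocyte markers and 1 of 7 mesenchymal markers. None was called among the 9 striatal regulators, 9 partners of DARPP-32, 5 signalling genes and 5 neural progenitor markers tested, or in the remaining lists. Each of the 6 is given as the log2 response of STHdhQ111 minus that of STHdhQ7 cells with the adjusted p from edgeR. Stra6 had 4.53 (adjusted p = 0.00536), with called responses of opposite direction in the lines, and Slc1a3, the glutamate transporter, had -1.96 (adjusted p = 0.0109). Each of these calls was kept in 20 alternatives, of 21 and 22 in turn, and lost without the 4 libraries with muscle transcripts. Pdgfrb, a mesenchymal growth factor receptor, had -1.2 (adjusted p = 0.0283, kept in 11 of 22 alternatives), Aldh1a3 had 2.51 (adjusted p = 0.0321, kept in 10 of 21) and Map2 had 1.81 (adjusted p = 0.0496, kept in 7 of 22). Cyp26a1 had 9.77 (adjusted p = 0.0354, kept in 7 of 22), a value that depends on the prior count of the fit because its Q111-C libraries are all at 0, and is no measure of size. Stra6 reached 0.5 TPM only in Q7-C and Q111-T libraries, and Aldh1a3 only in Q7-C libraries. For these genes, being tested and the difference of the responses are therefore not independent. Without the 4 libraries none of the 6 was called, and the part of the muscle transcripts in the differences of the 6 was not tested.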

How the results depend on the processing

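The direction of the log2 fold changes of the 3 tested members was kept in all but 13 of 342 refits. Foxp1 in Q111-T vs. Q7-T turned from -0.14 to 0.28, 0.29 and 0.27 with limma on log2(TPM + 0.5), (TPM + 0.1) and (TPM + 1), to 0.0563 without Q7-T replicate 2 (-0.257 to 0.0563 with single libraries left out) and to 0.11 without the 4 libraries with muscle transcripts. The interaction of Ppp1r1b turned from 0.14 to -0.35, -0.0874 and -0.302 with the same limma fits and to between -0.49 and -0.12 without Q7-C replicate 1, Q7-T replicate 3 or Q111-T replicate 1 (up to 1.09 without others). Penk in Q7-T vs. Q7-C turned from 0.72 to -1.28 without Q7-T replicate 2 (up to 6.81 without Q7-C replicate 2, the only library of that group with a Penk count) and to -0.44 without the 4 libraries. The number of members called in Q111-C vs. Q7-C (1) was 2 with limma on log2(TPM + 0.5) and (TPM + 0.1) and with only the 2 groups compared, and 0 to 1 with single libraries left out. In Q111-T vs. Q7-T (0) it was 1, 2 and 1 with limma at pseudocounts of 0.5, 0.1 and 1, 1 with the counts divided by 4, 1 without the 4 libraries, and 0 to 1 with single libraries left out. In Q7-T vs. Q7-C (0) it was 1 without the 4 libraries. In Q111-T vs. Q111-C (0) it was 1 with limma at pseudocounts of 0.5 and 1 and 2 with only the 2 groups compared. In the interaction (0) it was 1 with limma at a pseudocount of 1. The cause was not tested. Leaving out the 4 libraries was chosen after seeing the data.

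With a replicate block, 1 member was called in Q111-C vs. Q7-C (Penk, 6.08) and 0 in each other comparison, as without it, while Ppp1r1a in Q111-T vs. Q7-T, Zfp503 and Dlx5 in Q111-T vs. Q111-C, Aldh1a3 in Q7-T vs. Q7-C, Aldh1l1 in Q111-C vs. Q7-C and the differences of response of Cyp26a1 and Map2 were not called with it. The replicate numbers were not taken as pairs, since the deviations of same-numbered libraries correlated from -0.58 to 0.45, over 0.1 in 7 of 18 pairs of libraries. Across the 8 members with a row, the depth limits Bcl11b, Foxp2, Rarb, Pdyn and the STHdhQ7 values of Adora2a and Penk, which rest on at most 26 estimated counts. The calls of the other lists were within 1.5 times of those reported in 1223 of 1368 refits.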

Other observations

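Markers of the other cell types that the cultures could hold were read beside the medium spiny neuron genes. Of 6 neural progenitor markers, 5 have a row and were tested, and in Q111-C vs. Q7-C 3 were called lower and 0 higher (7.61% and 7.62% over all genes), with a median log2 fold change of -3.18. Pax6, a factor of neural progenitors, had 4.55 to 8.62 TPM in Q7-C and at most 0.201 TPM in Q111-C (-6.16, standard error 0.929, adjusted p = 5.22e-04, edgeR). As it passed the condition for a test only through STHdhQ7 libraries, its being tested and its difference are not independent. Vim (vimentin) had the highest mean, 2000.0 TPM over the 12 libraries. All 7 mesenchymal markers were tested, and in Q111-C vs. Q7-C 4 were called higher and 2 lower. Acta2 averaged 1670.0 TPM in untreated STHdhQ7 and 43.7 TPM in untreated STHdhQ111 cells (-5.59, standard error 0.347, adjusted p = 7.97e-07, edgeR), while Col1a2, a fibrillar collagen, was higher in Q111-C (3.81, standard error 0.178, adjusted p = 1.26e-07, edgeR). On treatment, Col3a1 was lower in STHdhQ7 cells (-1.71) and Col1a2 in STHdhQ111 cells (-2.56), the largest called changes of this list. Between the untreated lines Col1a2 differs in the direction of Penk, and Pax6 and Acta2 differ in the opposite one. The part of these genes in the result of Penk was not tested.

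Of 7 astrocyte markers, 3 were tested. Slc1a3, a glutamate transporter, had 0.434 to 1.32 TPM in untreated STHdhQ7 and 8.6 to 10.6 TPM in untreated STHdhQ111 cells (3.18, standard error 0.285, adjusted p = 1.08e-05, edgeR), and it was lower in Q111-T than in Q111-C (-1.75, standard error 0.269, adjusted p = 7.67e-04, edgeR), whereas Gfap did not exceed 0.327 TPM. Aldh1l1, a folate enzyme of astrocytes, was called the opposite way in both comparisons. It had 0.191 to 0.469 TPM in untreated STHdhQ7 and at most 0.115 TPM in untreated STHdhQ111 cells (adjusted p = 0.0459, edgeR, a call kept in 9 of 23 alternatives), and 1.05 to 1.61 TPM in Q111-T, higher than in Q111-C (adjusted p = 0.0116, edgeR, not called without the 4 libraries with muscle transcripts). It passed the condition for a test through these Q111-T libraries and 1 library of Q7-T, so its being tested and its difference are not independent either. Aldoc, a glycolytic enzyme, was called higher in the Q111-T libraries against Q7-T (1.29, standard error 0.277, adjusted p = 0.00369, edgeR). Of 8 microglia markers, 6 have a row and 2 were tested, Ptprc was not detected, and Cd68, a lysosomal protein that other cells also express, was higher in Q111-T than in Q111-C (1.81, standard error 0.374, adjusted p = 0.0053, edgeR). Tmem119, the other one tested, was lower on treatment in STHdhQ7 (-1.78, standard error 0.225, adjusted p = 4.29e-04, edgeR) and STHdhQ111 cells (-1.77, standard error 0.224, adjusted p = 1.86e-04, edgeR). Of 6 oligodendrocyte markers, 4 have a row and none was tested. Of 5 striatal interneuron markers, 1 (Pvalb) has a row; it reached 222.0 TPM in Q7-T and is also one of the 10 muscle genes. Gad1, an enzyme that makes GABA, had 0 counts in the Q7-C, Q7-T and Q111-C libraries and 34 to 121 estimated counts in Q111-T, and it was chosen after its values were seen.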
